A study of Mus musculus with 31 samples.

Results

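Glutamate receptor genes were followed in sorted and cultured mouse neural stem cells, together with the vesicular glutamate transporters and the receptor scaffolds Grip1 and Dlg4. The set has 29 genes, taken by symbol from a list, among 24062 gene names in each sorted-cell table and 24322 in each culture table. It holds 4 AMPA, 5 kainate and 7 NMDA receptor subunits, 1 delta subunit, 7 metabotropic receptors, 3 vesicular transporters and the 2 scaffolds. All 29 symbols were found in every one of the 21 RNA-seq libraries. Of the sorted cells, 15 libraries were made from EGFP-positive cells of the dentate gyrus of Nestin-EGFP mice on C57BL/6, in which the Nestin promoter drives the reporter, so the sorted population can hold any cell that expresses or has kept EGFP. Midazolam (MDZ), a benzodiazepine that strengthens GABA-A receptor currents, was injected into the peritoneum at 10 mg/kg on postnatal days 7, 8 and 9, and controls received water. The groups Control P10 and MDZ P10 were sorted at postnatal day 10, from 1 mouse per library. At 8 weeks the groups were MDZ 8w, its control group Control 8w, and RUN MDZ 8w, with cells pooled from 3 to 5 mice per library, and RUN MDZ 8w mice had been exposed to midazolam and then housed with a running wheel. No unexposed running group is among the samples used here, so running was compared in exposed mice only. The remaining 6 libraries came from wild-type ICR cortical neural stem cells (embryonic day 11) kept in culture for over 20 passages. All cultures carried a lentivirus for the M2rtTA transactivator, and the Egr1 culture group also carried one for Flag-tagged Egr1, a zinc finger transcription factor. Each group had 3 libraries.

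Glutamate is the main excitatory transmitter of the brain. AMPA and kainate receptors are fast cation channels, NMDA receptors are calcium-permeable channels built from an obligatory GluN1 subunit with GluN2 or GluN3 partners, and metabotropic receptors act through G proteins. Neural stem cells, astrocytes, oligodendrocyte precursors and newborn dentate neurons all carry some of these receptors, whereas vesicular transporters load glutamate into synaptic vesicles and mark neurons that release it.

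Levels are FPKM at P10 and TPM at 8 weeks and in culture, both per transcript length. They were normalised apart, so tests stayed within each age or culture. Control 8w stood apart from the other 8-week groups, with 11163 to 11397 genes above 0 against 15382 to 16709. Its replicates 2 and 3 shared 97.4% of detected genes and were counted as 1 sample (n = 2), while replicate 1 shared 78.4% and 77.8% with them. Control 8w listed 7 to 9 of the 29 members at 0 in each library, against 1 to 4 in the exposed groups. At P10, Control replicate 1 had 159 FPKM of Xist and 0.0319 FPKM of the Y-linked Ddx3y, against 0.0537 to 0.185 and 15.6 to 16.9 FPKM in the other libraries. At 8 weeks Ddx3y was listed at 0 in RUN MDZ 8w replicates 1 and 3 and was 29.1 to 72.3 TPM in the other libraries. Added Egr1 was visible in its own gene, at 1291 to 1769 TPM in Egr1 culture against 285 to 361 TPM in Control culture. All 12 radial glia markers were above 0 in every library, and markers of neuroblasts, oligodendrocyte precursors and mature neurons were also present, so levels describe mixed cells. In such samples fewer cells of a type and less RNA per cell cannot be told apart.

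Gria2, the AMPA subunit whose edited form limits calcium entry, had the highest level of the set in each of the 5 sorted groups. In Control P10 it averaged 103 ± 3.95 FPKM (SD, n = 3), followed by Grm3 at 57.9 ± 7.84, Grik5 at 50.5 ± 1.35, Grin2c at 30.6 ± 3.63 and Dlg4 at 25.7 ± 0.868 FPKM. The spread of Grm3 (49.996 to 65.7 FPKM) overlapped that of Grik5 (48.9 to 51.3 FPKM), so the order of these neighbours was not resolved. In MDZ P10 the leading 5 genes stood in the same order. At 8 weeks Gria2, Grik5 and Dlg4 led in all 3 groups. In Control culture the order was led by Dlg4 at 64.9 ± 4.36 TPM, and Grm5, Gria3 and Gria2 followed between 28.5 and 35.3 TPM on average. The lowest members were nearly silent: Grin2a, Grm6, Grm8 and Slc17a8 were under 1 FPKM in every P10 library, and Slc17a6 was listed at 0 in all 6 culture libraries.

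**Figure D1:**
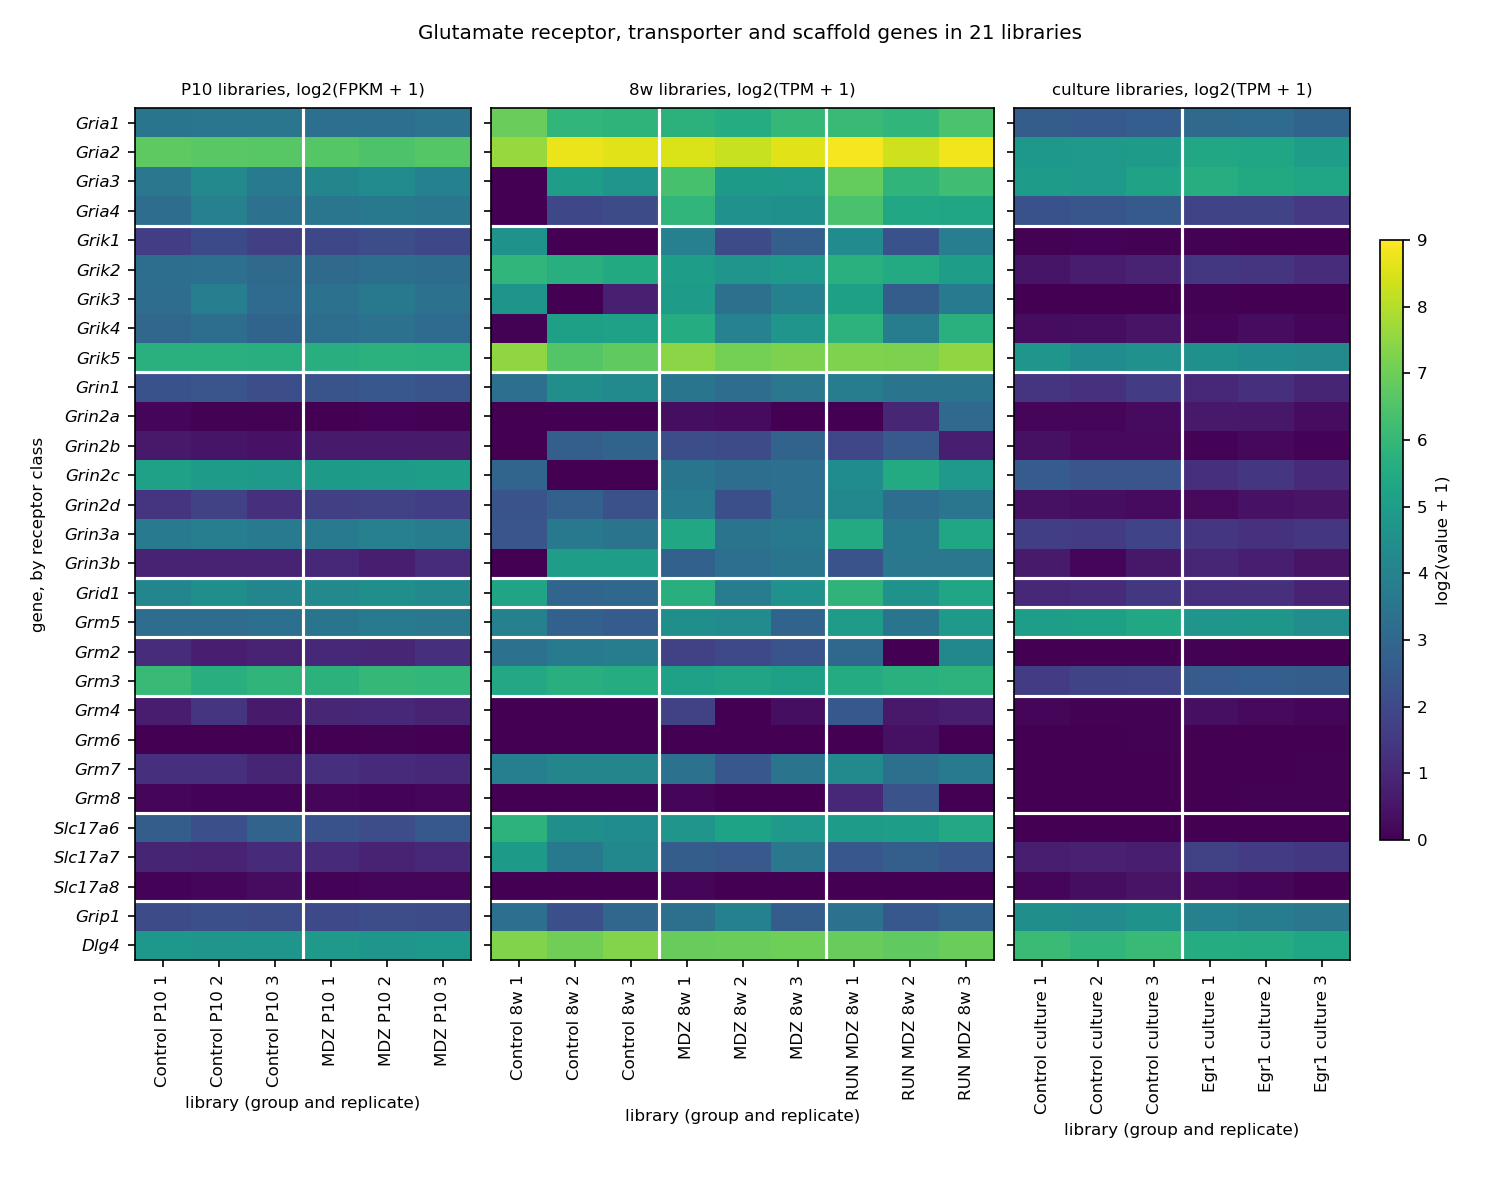
Level of the 29 genes in the 21 libraries, as log2(value + 1) in colour, with FPKM at P10 and TPM at 8 weeks and in culture; white lines separate receptor classes (rows) and groups (columns). Gria2 is the brightest row of the sorted cells, Control 8w replicate 1 differs from replicates 2 and 3 in several rows, and the kainate rows other than Grik5 darken in culture.

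Gria2 was the largest part of AMPA subunit RNA in every sorted library, whereas Gria3 was larger in every culture library. Gria2 made up 70.9% to 78.4% of the summed AMPA subunit level in Control P10 and 69.3% to 73.5% in MDZ P10. At 8 weeks its share lay between 61.9% and 82.0% over the 9 libraries. Among controls, Gria1 was 7.28% to 8.05% in Control P10 and 11.3% to 38.1% in Control 8w, highest in replicate 1. In the exposed groups Gria1 was 6.58% to 7.37% in MDZ P10 and 9.72% to 12.8% in MDZ 8w. That MDZ 8w range held every Control 8w library except replicate 1, so no smaller change with age is read from Gria1. Gria4 was 6.12% to 9.59% in Control P10 and 0.687% at most in Control 8w. For Gria4 the exposed groups differed less between ages, at 7.83% to 8.82% in MDZ P10 and 4.39% to 10.7% in MDZ 8w. In culture Gria2 was 40.1% to 42.6% without and 40.2% to 42.5% with added Egr1, while Gria3 held 43.4% to 46.2% and 46.4% to 49.4%. These shares are set side by side without a test, because sorted and cultured cells differ in strain, brain region and age.

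**Figure D2:**
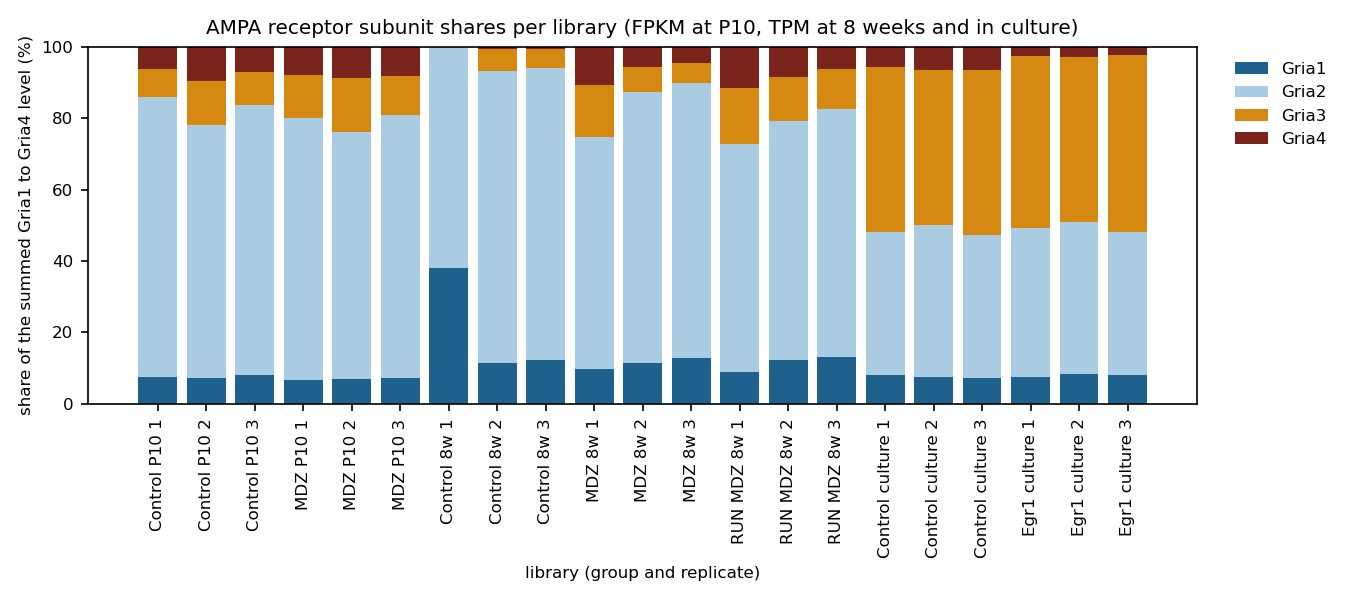
Share of each AMPA subunit in the summed level of Gria1 to Gria4 (y axis, %), one bar per library. Gria2 fills most of each bar in the sorted cells, Control 8w replicate 1 holds no Gria3 or Gria4, and Gria3 is about as large as Gria2 in culture.

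The first comparison asked what changed 1 day after the last midazolam injection. None of the 21 members with a mean of at least 1 FPKM passed the test in MDZ P10 against Control P10 (limma-trend on log2(FPKM + 1), Benjamini-Hochberg adjusted p below 0.05 over 12914 genes), where 0.00774% of all genes passed. At an unadjusted p below 0.05, 2 members were below the threshold, Grm5 and Gria1, against 12.2% of all genes. In 3 tested members every MDZ library lay on one side of every control library, against 18.8% of all genes (12.2% higher, 6.61% lower). The members' median log2 change was 0.06, with 0.01 over all genes.

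Grm5, the group I receptor that couples to phospholipase C and calcium release, was 8.34, 8.22 and 8.80 FPKM in Control P10 and 10.3, 11.8 and 11.2 FPKM in MDZ P10. The groups did not overlap, and its log2 difference was 0.36 ± 0.06 (SE, limma adjusted p = 0.206). Without Control P10 replicate 1, the library with high Xist, it was 0.35 (limma adjusted p = 0.407).

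Gria1, the AMPA subunit tied to activity-dependent insertion at synapses, was 10.3, 10.6 and 10.6 FPKM in Control P10 and 8.82, 8.87 and 9.75 FPKM in MDZ P10. All MDZ values lay below all control values (log2 -0.18 ± 0.06, limma adjusted p = 0.294). Gria2 was 107, 104 and 99.4 FPKM in Control P10 and 98.5, 89.7 and 97.2 FPKM in MDZ P10. It too did not overlap, with a log2 difference of -0.12 ± 0.06 (limma adjusted p = 0.465). The summed mature neuron markers lay at 161 to 170 FPKM in Control P10 and 152 to 156 FPKM in MDZ P10, also without overlap. Pericyte, smooth muscle and fibroblast markers summed to 236 to 282 FPKM in Control P10 and 167 to 207 FPKM in MDZ P10. None of the 10 tested neuron and 13 tested pericyte markers passed, and no marker of either list was at 0. Their part in these differences was not tested.

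Gria3, an X-linked AMPA subunit, was 10.9, 17.8 and 12.3 FPKM in Control P10 and 16.4, 19.4 and 14.7 FPKM in MDZ P10. Gria4, a subunit with fast kinetics, was 8.38, 14.02 and 9.21 against 10.5, 11.4 and 10.6 FPKM. Both overlapped between groups, and in both Control replicate 2 was the highest control library.

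Grik5, which encodes a kainate subunit that needs a partner such as GluK1 to GluK3 to form a channel, was 51.3, 51.2 and 48.9 FPKM in Control P10 and 50.1, 52.4 and 52.0 FPKM in MDZ P10. Its log2 difference was 0.03 ± 0.05 (limma adjusted p = 0.847). It supplied 60.2% to 67.0% of the kainate subunit sum in Control P10. Grik2 stayed between 7.65 and 8.87 FPKM over the 6 libraries, and Grik1, Grik3 and Grik4 spanned 2.09 to 13.3 FPKM between them.

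Among NMDA subunits, Grin2c, known from cerebellar granule cells and astrocytes, was 34.7, 29.4 and 27.8 FPKM in Control P10 and 29.2, 29.6 and 31.2 FPKM in MDZ P10. It made up 90.8% to 94.0% of the summed GluN2 level in the 6 libraries. Grin1, which encodes the obligatory GluN1 subunit, was far lower than Grin2c, at 3.47 to 4.43 FPKM. Grin2b, the GluN2 gene of immature neurons, stayed under the limit of 1 FPKM on average and was not tested. Its values were 0.528, 0.427 and 0.369 FPKM in Control P10 and 0.575, 0.573 and 0.574 FPKM in MDZ P10, without overlap. Grin3a, a subunit that lowers calcium entry, was 11.8 to 14.1 FPKM, Grin2d was 1.35 to 2.37 FPKM and Grin3b was 0.700 to 1.21 FPKM.

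Grid1, a delta receptor subunit that binds the synaptic organiser cerebellin, was 16.6, 21.2 and 16.5 FPKM in Control P10 and 19.0, 21.4 and 18.9 FPKM in MDZ P10. Grm3, the group II receptor of astrocytes and progenitors, was 65.7, 49.996 and 58.2 FPKM in Control P10 and 53.6, 63.4 and 61.7 FPKM in MDZ P10. Both genes overlapped between groups. Its group II partner Grm2, a presynaptic autoreceptor, was 1.19, 0.708 and 0.877 FPKM in Control P10 and 1.01, 0.935 and 1.32 FPKM in MDZ P10. Grm7, a group III presynaptic receptor, was 1.36, 1.40 and 0.887 against 1.30, 1.14 and 1.01 FPKM, and Grm4, of the same group, was 0.651, 1.54 and 0.561 against 0.952, 1.05 and 0.797 FPKM. None of these 3 separated the groups.

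Slc17a6 (VGLUT2), a vesicular transporter, was 5.28, 3.62 and 6.32 FPKM in Control P10 and 3.82, 3.36 and 4.58 FPKM in MDZ P10. Slc17a7 (VGLUT1), which takes over in mature granule neurons, was 0.907, 0.871 and 1.16 against 1.10, 0.853 and 1.04 FPKM. Both overlapped between groups. The order of the 6 libraries by Slc17a6 was the same as their order by the summed neuroblast markers, which ran from 561 FPKM in MDZ P10 replicate 2 to 763 FPKM in Control P10 replicate 3. Its 2 highest libraries were also those of the summed radial glia markers, and 10.2% of all genes had this pair highest, against 4.76% of tested members. This order was sought after the values had been seen, and the part of these cells was not tested. Dlg4 (PSD-95), the postsynaptic scaffold of excitatory synapses, was 26.7, 25.1 and 25.4 FPKM in Control P10 and 27.9, 25.6 and 26.8 FPKM in MDZ P10. Grip1, which binds the tails of GluA2 and GluA3, was 3.15, 3.55 and 3.39 against 3.01, 3.34 and 3.13 FPKM. Neither scaffold separated the groups.

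For 10 of the 21 tested members at P10 (47.6%), Control replicate 2 and MDZ replicate 2 were the highest pair of libraries, against 7.27% of all genes. They were Gria3, Gria4, Grik1, Grik2, Grik3, Grik4, Grin1, Grin2d, Grin3a and Grid1. The same pair had the highest summed oligodendrocyte precursor markers, at 1669 and 1613 FPKM against 1252 to 1484 FPKM in the other libraries. It was also highest for mature oligodendrocyte markers, at 2793 and 1628 FPKM. Oligodendrocyte precursors are known to carry AMPA, kainate and NMDA receptors and to receive glutamatergic synapses. This count was made after the values had been seen, and the part of these cells in the members' levels was not tested.

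The other genes of glutamate signalling did not pass at P10 either. In that comparison 0 of 15 auxiliary subunits of AMPA and kainate receptors, 0 of 20 postsynaptic scaffolds, 0 of 17 uptake and metabolism genes and 0 of 19 kinases and effectors were called. Their median log2 changes were 0.13, 0.01, -0.03 and 0.04. Of the auxiliary subunits 13 were positive and 2 negative.

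At 8 weeks the question was whether sedentary mice exposed as pups still differed from controls. In MDZ 8w against Control 8w, 1 of 26 tested members passed, Gria4, and it was higher, against 5.13% of all 15264 genes in either direction and 4.68% as higher. All 3 groups entered one fit with one spread, although the Control 8w samples differed from each other more than those of the exposed groups. The median log2 change of the members was 0.44, and that of all genes tested was 0.36. With quantile normalization the median of all genes was -0.06, so changes at 8 weeks are read relative to these medians. Between MDZ 8w and Control 8w, 8 members did not overlap, 2 higher and 6 lower, against 36.3% of all genes (26.2% higher, 10.1% lower).

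Gria4 was listed at 0, 2.86 and 3.24 TPM in Control 8w and at 59.4, 22.5 and 21.8 TPM in MDZ 8w. All exposed libraries lay above all controls, with the first MDZ library highest (log2(TPM + 1) change 3.98 ± 0.74, limma adjusted p = 0.0233). Without Control 8w replicate 1, in which the gene is listed at 0, the change was 2.97 (limma adjusted p = 0.0146), with 1 control sample left and assumed to vary like the other groups. The call was lost without any one of the 3 MDZ 8w libraries (limma adjusted p = 0.107, 0.0739 and 0.0704), with quantile normalization (0.103), with library quality weights (0.470) and with only the 2 groups in the fit (0.0652). Summed mature astrocyte markers were 1090 to 1466 TPM in Control 8w and 2168 to 2402 TPM in MDZ 8w, and 2 of 11 of them rose. Radial glia markers summed to 2294 to 2571 and 3581 to 5214 TPM, with 3 of 12 higher. Summed oligodendrocyte precursor markers were 1415 to 4737 and 1956 to 6438 TPM and overlapped. The part of these cells in the Gria4 difference was not tested.

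Gria3 was listed at 0, 32.3 and 25.1 TPM in Control 8w and stood at 81.4, 28.8 and 27.9 TPM in MDZ 8w. Its groups overlapped, and the first MDZ library was well above the rest. Gria2 was 196, 430 and 387 TPM in Control 8w and 362, 306 and 383 TPM in MDZ 8w. Gria1 was 121, 59.4 and 57.4 TPM against 54.1, 46.6 and 63.5 TPM. In both genes Control 8w replicate 1 was the outlying control, low for Gria2 and high for Gria1.

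Grin2c was 6.70 TPM in Control 8w replicate 1, listed at 0 in replicates 2 and 3, and 10.2, 8.42 and 8.68 TPM in MDZ 8w. The groups did not overlap (log2 1.86 ± 0.85, limma adjusted p = 0.241). Without Control 8w replicate 1 the control group was listed at 0, and the gene passed (limma adjusted p = 0.00377). With quantile normalization the sign turned (log2 -0.05). Grin3b, the NMDA gene with the highest mean in Control 8w, was listed at 0, 32.2 and 32.1 TPM there and at 5.98, 8.87 and 10.3 TPM in MDZ 8w. Its control libraries lay on both sides of the exposed ones.

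Of the 6 members lower without overlap, Slc17a7 had the second-largest difference. It was 29.3, 11.3 and 17.6 TPM in Control 8w and 5.29, 4.67 and 11.2 TPM in MDZ 8w, with a log2 change of -1.51 ± 0.59 (limma adjusted p = 0.179). Grm2 was 9.20, 12.5 and 12.8 TPM against 2.36, 2.97 and 4.06 TPM (log2 -1.54 ± 1.12, limma adjusted p = 0.445). Grik2, a kainate subunit that forms channels alone or with GluK5, was 60.4, 50.3 and 43.6 TPM against 31.6, 25.1 and 28.3 TPM (log2 -0.89 ± 0.32, limma adjusted p = 0.154). These 3 genes did not pass, and the controls were higher in each library.

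Grm7 was 13.9, 16.1 and 16.1 TPM in Control 8w and 9.61, 4.44 and 9.92 TPM in MDZ 8w. Grm3 was 42.2, 49.4 and 46.2 against 34.3, 36.9 and 33.6 TPM, and Dlg4 was 154, 132 and 158 against 119, 122 and 127 TPM. None passed (limma adjusted p = 0.372, 0.431 and 0.349). Neuroblast markers summed to 9753 to 10333 TPM in Control 8w and 5791 to 8345 TPM in MDZ 8w, with 3 of 13 lower and 0 higher in the test. Mature neuron markers summed to 810 to 1100 and 838 to 911 TPM, and Camk2a, Calb1, Nrgn and Nefl were listed at 0 in all 3 control libraries. Pericyte, smooth muscle and fibroblast markers summed to 2382 to 3704 and 646 to 1381 TPM, with 1 of 14 lower, and Myh11, Col1a1, Dcn and Lum were listed at 0 in Control 8w replicates 2 and 3. Grm2 and Grm7 had the same 4 highest of the 8 samples as this list, 7.69% of the tested members against 1.77% of all genes. The part of these cells in the lower Slc17a7, Grm2 and Grm7 levels was not tested.

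Grik5 was 181, 95.9 and 111 TPM in Control 8w and 174, 139 and 149 TPM in MDZ 8w. Grm5 was 14.7, 5.97 and 5.07 against 21.5, 19.3 and 6.47 TPM, and Slc17a6 was 55.7, 21.2 and 19.6 against 24.9, 36.2 and 27.5 TPM. All 3 overlapped, and in each of them Control 8w replicate 1 was the highest control library. Grin2d, an NMDA subunit with slow decay, was 3.94, 5.70 and 3.73 TPM in Control 8w and 12.5, 3.62 and 8.81 TPM in MDZ 8w. Grip1 was 8.86, 3.61 and 6.90 against 9.06, 14.6 and 5.26 TPM. Of the members not described by library, Grik3, Grik4, Grin1, Grin2b and Grin3a ranged up to 34.9 TPM in Control 8w and 46.9 TPM in MDZ 8w and overlapped between these groups. Grin2a was listed at 0 in all controls and reached 0.248 TPM in MDZ 8w. Grm6, Grm8 and Slc17a8 had means under 1 TPM and were not tested at 8 weeks.

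Running was examined in exposed mice. In RUN MDZ 8w against MDZ 8w, 0 of 26 members passed by limma, against 0.157% of all genes (0.0524% higher), and 1 member had an unadjusted p below 0.05, Grm3, against 9.98% of all genes. Of the members 20 had a positive and 6 a negative log2 change, with a median of 0.45 against 0.05 over all genes. Of all 15264 genes 8235 were positive and 7020 negative. Grm4 and Grin2a reached the mean of 1 TPM needed for the test only through RUN MDZ 8w. The count of 20 is therefore partly set by the filter. Groups did not overlap in 2 members, both higher with running, against 24.9% of all genes and 14.4% as higher. Over all genes 8 rose and 16 fell, and with quantile normalization 15 rose and 19 fell.

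Grin2c was 19.9, 44.5 and 28.1 TPM in RUN MDZ 8w, above the 8.42 to 10.2 TPM of MDZ 8w (log2 1.58 ± 0.76, limma adjusted p = 0.555). On average it stood at 30.8 TPM with running, next to Grin3a at 31.7 TPM, the highest NMDA subunit of that group. Grm3 was 45.5, 51.7 and 55.7 TPM, above the 33.6 to 36.9 TPM of MDZ 8w (log2 0.53 ± 0.22, limma adjusted p = 0.490). Both genes are known from astrocytes, whose summed mature markers were 3050 to 3791 TPM with running and 2168 to 2402 TPM without, with 0 of 11 called. Mature oligodendrocyte markers summed to 2693 to 4077 against 219 to 1074 TPM, also with 0 of 10 called. Endothelial markers summed to 1215 to 1633 against 429 to 558 TPM, with 4 of 12 higher, and pericyte, smooth muscle and fibroblast markers to 2362 to 3409 against 646 to 1381 TPM, with 1 of 14 higher. Ependymal and choroid plexus markers summed to 337 to 4214 TPM with running and 44.7 to 93.0 TPM without, with 0 of 9 called. Grm3 was the only member with the same 4 highest of the 8 samples as this list. That was 3.85% of the tested members against 3.28% of all genes. In Control 8w the astrocyte sum was 1090 to 1466 TPM, below MDZ 8w, whereas Grm3 was 42.2 to 49.4 TPM, above it. The part of these cells in both differences was not tested.

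The running exposed mice were also set against sedentary controls, the same 3 Control 8w libraries as above. In RUN MDZ 8w against Control 8w, 2 of 26 members passed, both higher, against 11.3% of all genes in either direction and 9.41% as higher. At an unadjusted p below 0.05 there were 4 members and 27.2% of all genes. The median log2 change was 0.58 in the members and 0.51 over all genes. Groups did not overlap in 5 members as higher and 2 as lower, against 32.5% of all genes (23% higher, 9.47% lower). Among the 5 was Grm4, listed at 0 in all controls, which reached the mean of 1 TPM only through its level in RUN MDZ 8w. The count of 5 is therefore partly set by the filter. Over all genes 1437 rose and 290 fell, and with quantile normalization 278 rose and 128 fell.

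Gria4 was 84.6, 41.4 and 39.3 TPM in RUN MDZ 8w, against its 0 to 3.24 TPM in Control 8w (log2 4.71 ± 0.74, limma adjusted p = 0.00887). It passed in every fit that left out 1 library, including that without Control 8w replicate 1 (log2 3.70, limma adjusted p = 0.00435). The call was lost with library quality weights (limma adjusted p = 0.337) and with only the 2 groups in the fit (0.0868), settings in which 0 genes of all tested passed. Grin2c, at 19.9 to 44.5 against 0 to 6.70 TPM, passed too (log2 3.45 ± 0.85, limma adjusted p = 0.0401). Without Control 8w replicate 1 its adjusted p was 0.000494, but the call was lost without any one of the 6 exposed libraries (limma adjusted p = 0.0707 to 0.0981). It was also lost with a pseudocount of 0.1 (0.0780), no filter (0.0558), quantile normalization (0.172), quality weights (0.368) and only the 2 groups in the fit (0.179).

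The 4 samples with the most Gria4, Gria3, Grin2c and Grm4 were MDZ 8w replicate 1 and the 3 RUN MDZ 8w libraries. The same 4 had the highest summed mature oligodendrocyte markers and the highest summed mature astrocyte markers. Of all genes 6.07% had this top set, against 4 of 26 members (15.4%), of which Grm4 was tested only because of its level in RUN MDZ 8w, so the share is partly set by the filter. In the test of RUN MDZ 8w against Control 8w, 9 of 10 mature oligodendrocyte, 8 of 11 mature astrocyte and 8 of 12 endothelial markers rose and 7 of 13 neuroblast markers fell. The mature oligodendrocyte markers Mobp, Ermn and Opalin were listed at 0 in all 3 control libraries. These shared orders were sought after the values had been seen. The part of these cells in the higher Gria4 and Grin2c was not tested.

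Gria3 was 115, 58.7 and 74.6 TPM in RUN MDZ 8w and did not overlap its 0, 32.3 and 25.1 TPM in Control 8w, but missed the threshold (log2 3.89 ± 1.24, limma adjusted p = 0.0874). Without Control 8w replicate 1 the value was 1.44 (limma adjusted p = 0.119). Grin2d was 17.3, 8.55 and 10.6 TPM, against 3.73 to 5.70 TPM in controls (log2 1.26 ± 0.63, limma adjusted p = 0.237). With quantile normalization its sign turned (log2 -0.55). Grm4 was listed at 0 in the 3 controls and was 2.40, 0 and 0.265 TPM in MDZ 8w and 4.61, 0.529 and 0.695 TPM in RUN MDZ 8w.

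Slc17a7 was lowest in the running group, at 4.45, 5.56 and 4.49 TPM against 11.3 to 29.3 TPM in Control 8w (log2 -1.90 ± 0.59, limma adjusted p = 0.0794). It passed with quantile normalization (limma adjusted p = 0.0408) and with Control 8w replicates 2 and 3 kept apart (0.0451). Dlg4 was 118, 110 and 125 TPM, below the 132 to 158 TPM of controls (log2 -0.35 ± 0.17, limma adjusted p = 0.220). In contrast Slc17a6, at 30.8, 31.3 and 42.4 TPM, overlapped the 19.6 to 55.7 TPM of controls (log2 0.02 ± 0.45, limma adjusted p = 0.989).

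The other members of the running group overlapped Control 8w. Gria1 was 66.4, 59.9 and 86.1 TPM, Gria2 was 469, 326 and 451 TPM and Grik5 was 152, 149 and 181 TPM. Grik2 was 51.5, 44.1 and 31.2 TPM, Grm5 was 29.9, 10.3 and 27.9 TPM and Grm7 was 19.0, 9.05 and 11.7 TPM. Grm2 varied widely, at 7.26, 0 and 17.2 TPM. Grip1 was 9.47, 4.63 and 6.18 TPM and Grin3b 3.91, 11.3 and 10.8 TPM.

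**Figure D3:**
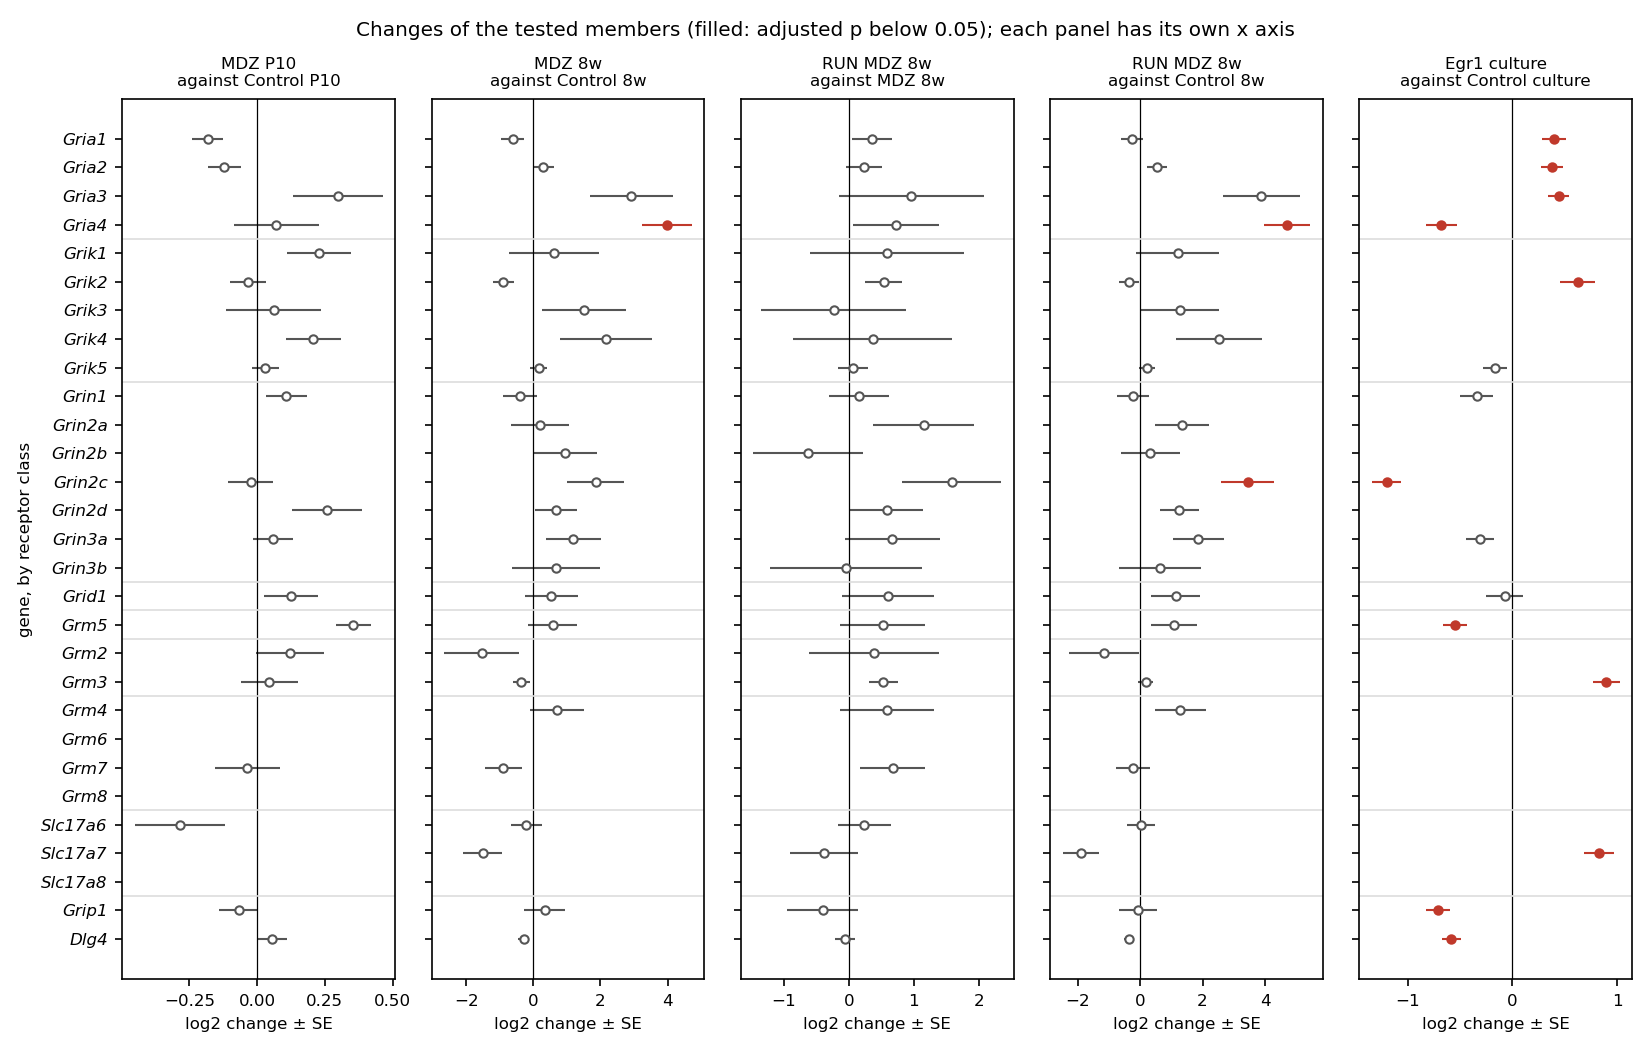
Log2 change with its SE (x axis, log2(value + 1) scale) of the tested members in the 5 comparisons, each panel with its own axis; filled red points passed at an adjusted p below 0.05. No member passed at P10 or with running against MDZ 8w, Gria4 passed in both comparisons with Control 8w, which share their control libraries, and 11 of 15 passed in culture.

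A few members shared their highest libraries with the oligodendrocyte precursor markers at 8 weeks. The summed markers were highest in RUN MDZ 8w replicate 1 (8581 TPM), MDZ 8w replicate 1 (6438 TPM), RUN MDZ 8w replicate 3 (5500 TPM) and Control 8w replicate 1 (4737 TPM). Grid1, Grik1 and Grik5 had the same 4 libraries at the top, 3 of 26 members (11.5%) against 2.88% of all genes. Grid1 was 37.6, 6.74 and 7.06 TPM in Control 8w, 48.4, 13.0 and 22.6 TPM in MDZ 8w and 57.3, 23.6 and 38.7 TPM in RUN MDZ 8w, and its order over all 8 samples was that of the marker sum. Grik1, a kainate subunit, was 22.8, 0 and 0 TPM, then 14.2, 3.12 and 5.67 TPM, then 19.2, 3.80 and 13.6 TPM in these groups. Both genes overlapped between groups, and the part of precursor cells in their levels was not tested.

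**Figure D4:**
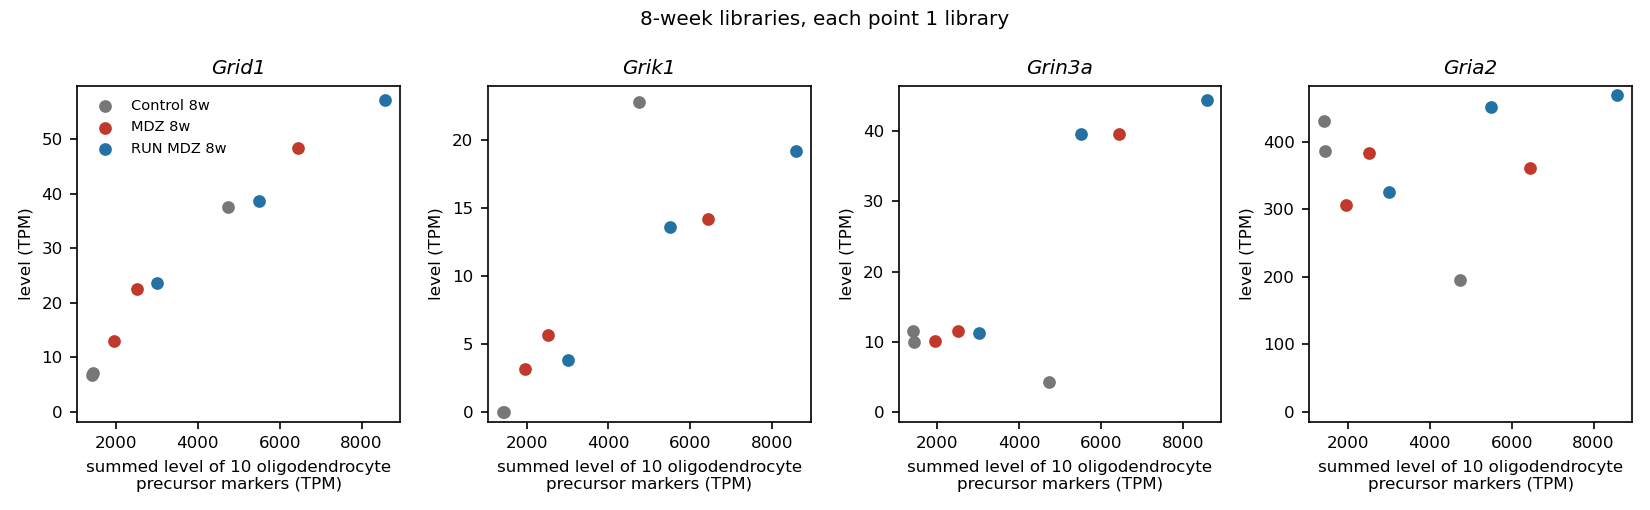
Level of 4 members (y axis, TPM) against the summed level of 10 oligodendrocyte precursor markers (x axis, TPM) in the 9 8-week libraries, coloured by group; the genes were picked after their values were seen. Grid1 rises along the marker sum across all 3 groups, Grik1 and Grin3a are high in most libraries with high sums, and Gria2 shows no such order.

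Few other glutamate pathway genes passed in MDZ 8w against Control 8w, where 4.68% of all genes were called higher. In MDZ 8w against Control 8w, 1 of 18 uptake and metabolism genes rose, Slc1a3, the astrocyte and radial glia glutamate transporter, from 716, 840 and 736 TPM to 1162, 1281 and 1081 TPM (log2 0.64 ± 0.14, limma adjusted p = 0.0406). Of 21 kinases and effectors 1 rose, Arc, an activity-induced gene that acts on AMPA receptor endocytosis, which was listed at 0.0483, 0 and 0 TPM in Control 8w and at 10.9, 17.3 and 19.6 TPM in MDZ 8w. Arc reached the mean of 1 TPM needed for the test only through the exposed groups, so its count is partly set by the filter. None of 16 auxiliary subunits or 21 scaffolds passed in this comparison.

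In RUN MDZ 8w against Control 8w, 6 of 18 uptake and metabolism genes rose and none fell, with a median log2 change of 0.92 against 0.51 over all genes, of which 9.41% rose. Slc1a2, the main astrocyte glutamate transporter, went from 259, 243 and 223 TPM to 697, 596 and 598 TPM (log2 1.35 ± 0.16, limma adjusted p = 0.00342). Srr, the serine racemase that makes the NMDA receptor co-agonist D-serine, also rose (log2 2.21 ± 0.54, limma adjusted p = 0.0382), and Gls2 was listed at 0 in all controls. Of 21 kinases and effectors 6 rose. The largest were Rasgrf1 and Camk2a, both listed at 0 in all controls, and Arc at 7.46, 21.05 and 8.54 TPM. Gls2, Rasgrf1, Camk2a and Arc reached the mean of 1 TPM needed for the test only through the exposed groups. Both counts of 6 are therefore partly set by the filter. Among 21 scaffolds Dlg3 rose (log2 1.90 ± 0.42, limma adjusted p = 0.0279), and 0 of 16 auxiliary subunits passed. In RUN MDZ 8w against MDZ 8w, 0 genes of the 4 lists passed by limma. Of the kinases and effectors 8 of 21 lay higher in every running library, against 14.4% of all genes. So did 6 of 18 uptake and metabolism genes, 2 of 21 scaffolds and 0 of 16 auxiliary subunits.

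Added Egr1 changed most members that the cultured cells expressed. Of 15 tested members 6 rose and 5 fell in Egr1 culture against Control culture, while 44.2% of all 12402 genes passed (15.2% higher, 29% lower). AMPA subunits Gria1, Gria2 and Gria3, the kainate subunit Grik2, Grm3 and Slc17a7 were higher, whereas Gria4, Grin2c, Grm5, Grip1 and Dlg4 were lower. Slc17a7 and Grik2 entered the test only through their Egr1 culture values, so the 6 are not read as a tally of all members. Groups did not overlap in 13 of the 15, 6 higher and 7 lower, against 55.5% of all genes (18.4% higher, 37.1% lower). At an unadjusted p below 0.05 were the same 11 members and 51.9% of all genes. The median log2 change was -0.17 in the members and -0.10 over all genes, which moved to 0.01 with median-of-ratios scaling. Over all genes 1888 rose and 3598 fell, against 2776 and 2721 with median-of-ratios scaling and 2452 and 3214 with quantile normalization. None of the 11 members changed direction under any scaling tried. No label says that the replicates were separate cultures, so these p-values rest on a spread that may be technical.

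On the log2(TPM + 1) scale Grm3 had the largest rise, while by the ratio of group means Slc17a7 and Grik2 rose more. Grm3 was 1.96, 2.56 and 2.69 TPM in Control culture and 5.15, 5.49 and 5.29 TPM in Egr1 culture, with means of 2.40 ± 0.390 and 5.31 ± 0.171 TPM (SD, n = 3 each). The groups were far apart (log2 0.90 ± 0.13, limma adjusted p = 0.000617). Slc17a7 rose from 0.694, 0.758 and 0.702 TPM to 2.45, 2.01 and 1.72 TPM (log2 0.83 ± 0.15, limma adjusted p = 0.00207). Its mean was 0.718 TPM in Control culture and 2.06 TPM in Egr1 culture, so it reached the mean of 1 TPM needed for the test only through the group where it is high. It was the only vesicular transporter at 1 TPM or more in a culture library, since Slc17a6 was at 0 and Slc17a8 reached 0.392 TPM at most.

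Grik2 rose from 0.440, 0.639 and 0.839 TPM to 1.74, 1.59 and 1.23 TPM (log2 0.62 ± 0.16, limma adjusted p = 0.0139). With means of 0.639 and 1.52 TPM it too reached the limit only through Egr1 culture. Kainate receptor RNA was nevertheless mostly Grik5, at 25.4, 19.7 and 22.4 TPM without and 22.0, 19.9 and 18.0 TPM with Egr1. Grik5 did not pass (log2 -0.17 ± 0.11, limma adjusted p = 0.265), and it made up 94.6% to 97.3% and 91.6% to 93.1% of the kainate sum.

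Gria3 was 30.7, 28.5 and 35.4 TPM in Control culture and 47.5, 42.9 and 39.4 TPM in Egr1 culture (log2 0.44 ± 0.10, limma adjusted p = 0.00717). Gria2 rose from 26.7, 28.0 and 30.8 TPM to 40.9, 39.3 and 32.1 TPM (log2 0.38 ± 0.10, limma adjusted p = 0.0172). Gria1 rose from 5.31, 4.92 and 5.51 TPM to 7.54, 7.76 and 6.40 TPM (log2 0.40 ± 0.11, limma adjusted p = 0.0190). The Gria1 call was lost without Control culture replicate 2 or Egr1 culture replicates 1 or 2 (limma adjusted p = 0.0642, 0.0607 and 0.0747). That of Gria2 was lost without Control culture replicate 1 or the same Egr1 replicates (0.0595, 0.0588 and 0.0612).

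Gria4 moved against its relatives, from 3.78, 4.27 and 4.89 TPM to 2.61, 2.57 and 1.82 TPM (log2 -0.68 ± 0.15, limma adjusted p = 0.00595). Its share of the AMPA sum was 5.69% to 6.50% in Control culture and 2.29% to 2.78% in Egr1 culture. The sum itself was 65.7 to 76.6 TPM and then 79.7 to 98.5 TPM.

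Grin2c had the largest fall on the same scale. It was 5.09, 4.16 and 4.20 TPM in Control culture and 1.38, 1.66 and 1.13 TPM in Egr1 culture, with means of 4.48 ± 0.522 and 1.39 ± 0.264 TPM (log2 -1.20 ± 0.14, limma adjusted p = 0.000213). Its share of the GluN2 sum was 87.2% to 88.7% without and 62.1% to 63.4% with Egr1. Grin1 and Grin3a were also lower in every Egr1 library but did not pass (log2 -0.34 ± 0.15 and -0.31 ± 0.14, limma adjusted p = 0.106 and 0.0986). Grin2a, the GluN2 gene of mature neurons, was under the limit of 1 TPM on average and was not tested, at 0.110, 0.0849 and 0.208 TPM without and 0.548, 0.4995 and 0.241 TPM with Egr1.

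Grm5 fell from 32.2, 33.6 and 39.9 TPM to 24.8, 26.5 and 20.3 TPM (log2 -0.55 ± 0.12, limma adjusted p = 0.00537). Both scaffolds fell as well. Dlg4 went from 69.1, 60.4 and 65.3 TPM to 46.0, 45.6 and 37.8 TPM (log2 -0.58 ± 0.09, limma adjusted p = 0.00110), and Grip1 from 21.4, 19.4 and 23.7 TPM to 14.4, 13.0 and 11.0 TPM (log2 -0.71 ± 0.12, limma adjusted p = 0.00134). Grid1, at 0.857 to 1.75 TPM over the 6 libraries, did not pass (log2 -0.07 ± 0.18, limma adjusted p = 0.768). The remaining 14 members had means under 1 TPM and were not tested, among them Grin2d at 0.179 to 0.386 TPM, Grm4 at 0.0406 to 0.296 TPM and Grm2 and Grm7 at no more than 0.0399 TPM.

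**Figure D5:**
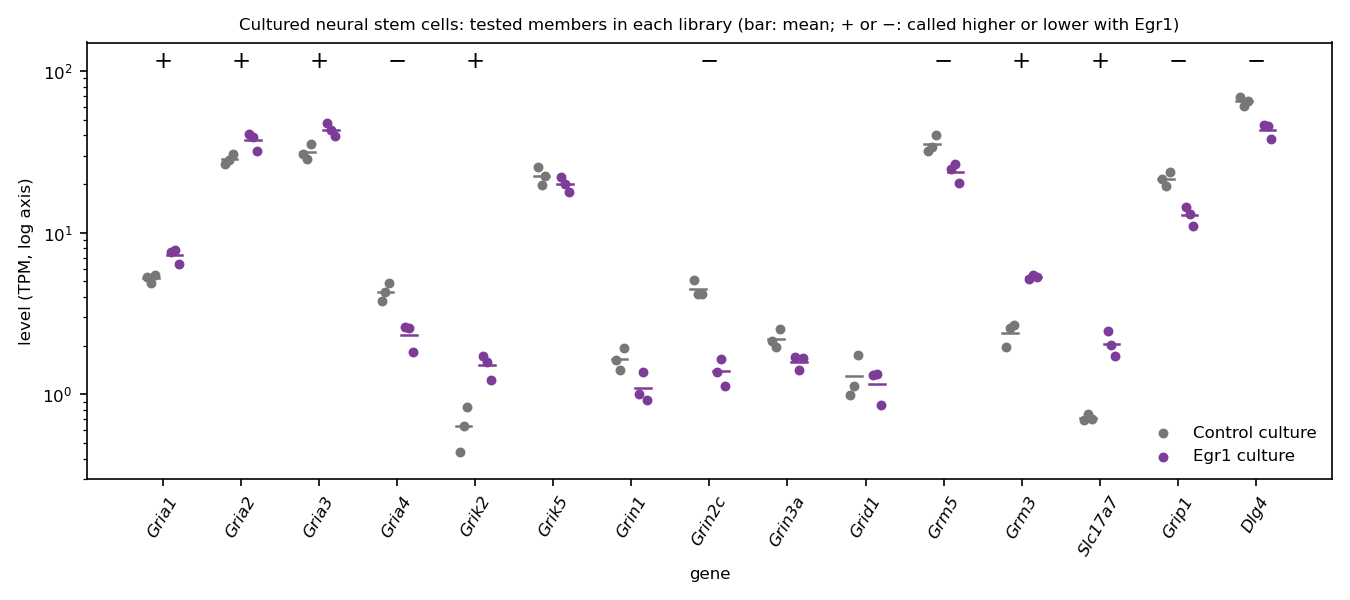
Level of the 15 tested members in each culture library (y axis, TPM, log scale), grey for Control culture and purple for Egr1 culture, with bars at the group means. A plus or minus sign marks the 6 genes that rose and the 5 that fell, with Grm3 and Grin2c furthest apart among the genes above 1 TPM in every library.

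Markers of other cell types moved in the same cultures. Mature neuron markers summed to 287 to 335 TPM in Control culture and 682 to 841 TPM in Egr1 culture, with 4 of 8 tested markers higher and 2 lower. Oligodendrocyte precursor markers summed to 1760 to 1853 and 887 to 1045 TPM, with 3 of 7 higher and 4 lower. Pericyte, smooth muscle and fibroblast markers summed to 5.62 to 7.56 and 147 to 185 TPM, with 3 of 4 higher, and 5 of 5 tested mature oligodendrocyte markers were higher. Radial glia markers summed to 5694 to 6150 and 5042 to 5285 TPM. Mature astrocyte sums were 589 to 616 and 447 to 497 TPM, with 2 of 9 higher and 2 lower. Neuroblast sums were 378 to 403 and 480 to 553 TPM, with 3 of 8 higher and 1 lower. Microglia sums were 53.1 to 56.1 and 31.9 to 34.0 TPM, with 2 of 2 lower. Ependymal and choroid plexus sums were 114 to 129 and 189 to 193 TPM, with 1 of 4 higher and 1 lower. Endothelial sums were 8.44 to 10.9 and 3.80 to 6.42 TPM, with 1 of 3 higher and 1 lower. Nefl or Rbfox1 was at 0 in each culture library and Sox10 in all 3 Control culture libraries. Their part in the changes of the members was not tested.

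Genes that work with the receptors were split in direction too, beside 15.2% of all genes higher and 29% lower. Of 11 auxiliary subunits of AMPA and kainate receptors 4 rose and 5 fell. Cnih3, a cornichon that slows AMPA receptor closing, rose from 0.460, 0.346 and 0.467 TPM to 4.82, 3.88 and 4.11 TPM (log2 1.88 ± 0.14, limma adjusted p = 1.4e-05). It reached the mean of 1 TPM needed for the test only through Egr1 culture. Genes of these lists can enter the test in this way, so their counts are partly set by the filter. Gsg1l, another AMPA auxiliary subunit, rose (log2 1.34 ± 0.20, limma adjusted p = 0.000859), and the transmembrane regulatory protein gene Cacng5 fell from 69.5, 57.3 and 68.5 TPM to 27.95, 31.2 and 25.998 TPM (log2 -1.17 ± 0.10, limma adjusted p = 3.2e-05).

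Of 15 postsynaptic scaffolds 4 rose and 4 fell. Lin7b and Homer2, which links group I receptors to calcium stores, rose (log2 1.35 ± 0.18 and 0.92 ± 0.12, limma adjusted p = 0.000452 and 0.000331). Of 18 uptake and metabolism genes 5 rose and 6 fell. Slc38a3, a glutamine transporter, fell from 61.7, 61.2 and 63.7 TPM to 18.0, 21.7 and 22.3 TPM, and Slc1a4, a neutral amino acid transporter, fell (log2 -1.12 ± 0.10, limma adjusted p = 4.4e-05). Slc1a1, a neuronal glutamate transporter, rose from 2.54, 2.75 and 3.65 TPM to 11.7, 11.4 and 8.34 TPM. Of 17 kinases and effectors 4 rose and 7 fell, led by Adcy1, a calcium-sensitive adenylyl cyclase (log2 -1.005 ± 0.11, limma adjusted p = 0.000159), by Camk2b (0.90 ± 0.07, 2.1e-05) and by Camk2d (-0.83 ± 0.10, 0.000262), subunits of a calcium-dependent kinase.

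As 11 members changed with added Egr1, the members' promoters were read for the letters that Egr1 is known to bind. RefSeq (GRCm38.p6) gave 29 promoter windows for 20 of the 29 members, each from 250 bases before to 50 after a gene start. The motifs GCGTGGGCG and GCGGGGGCG were searched on both strands, and 3.47% of 32851 promoters of the same length held at least 1. Of the member windows 2 held a match, 1 each at Grm3 and Grin1 (6.9%). The promoters of the member with the largest rise and of that with the largest fall on the log2(TPM + 1) scale are shown from 100 bases before to 20 after the start, with the match in capitals. Grm3 is on the minus strand at chr5:9725333-9725452 and Grin2c on the minus strand at chr11:115267224-115267343.
Grm3: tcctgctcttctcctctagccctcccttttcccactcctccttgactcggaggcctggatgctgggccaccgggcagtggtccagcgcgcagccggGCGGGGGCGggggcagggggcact
Grin2c: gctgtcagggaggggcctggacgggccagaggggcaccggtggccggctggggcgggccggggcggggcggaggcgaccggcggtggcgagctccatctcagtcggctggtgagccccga
The Grm3 match begins 4 bases before the start, and the Grin2c window holds neither motif. Of the members with a promoter that rose in culture 1 of 4 held a match, of those that fell 0 of 4 and of those tested that did not pass 1 of 2, counts too small to read a relation from. A match describes letters only.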

How the data were processed

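RNA was measured in 21 sequencing libraries, and the 10 libraries of other assays were not analysed here. The authors deposited 1 table per library, read from its values as FPKM at P10 and as TPM at 8 weeks and in culture, since no label states the unit. The genome build mm10 and the tools TopHat, Bowtie2 and DESeq2 are named, without version or role, in the submitters' processing notes; the annotation and counting rules are not stated there. Use of strand in counting is not given in the sources used here, so reads of overlapping and antisense genes may be mixed.

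From the deposited FPKM and TPM values, log2(value + 1) was tested with limma-trend (limma 3.58.1, R 4.3.3) in genes averaging 1 or more over the fitted samples, with Benjamini-Hochberg adjustment over all of them and a threshold of 0.05. Fold changes are on that scale, which understates changes of low genes. P10 and culture fits held 2 groups each, and the 8-week fit all 3. Control 8w replicates 2 and 3 (Spearman 0.992 between them) were averaged as 1 sample. No label names an extraction or sequencing batch. Relative depth, read from the smallest value steps, was 0.571 to 1 at P10 and 0.899 to 1 in culture, and the depth at 8 weeks is unknown, so no counting intervals are given. The script was tested on simulated data.

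Library values are printed for members that passed in any comparison, that led their class in Control P10, Control 8w or Control culture, or whose groups did not overlap with a log2 change of at least 1 in size; others shown by library were added after their values were seen. Of the pathway lists, up to 3 passing genes with the largest change per comparison are named. A further gene that this rule would name is not reported here. Members and lists were chosen with earlier results of these data known. Alternatives were a pseudocount of 0.1, no filter, median-of-ratios scaling, quantile normalization, library quality weights, leaving out each library, a replicate block, Control 8w replicates 2 and 3 kept apart and fits of 2 groups. Promoters were read with Python 3.11.15.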

Additional observations from a re-analysis of the deposited data

How the results depend on the processing

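At P10 no member passed under any alternative. All-gene calls, 1 as reported, were 0 with median-of-ratios scaling, 4 with quantile normalization, 5 with library quality weights and 0 to 101 when 1 library was left out. The 101 came without Control P10 replicate 2. In MDZ 8w against Control 8w, members called, 1 as reported, were 0 with quantile normalization, 0 with quality weights, 0 with only the 2 groups in the fit and 0 to 3 when 1 library was left out. The 3 came without Control 8w replicate 1 (Gria4, Grik3 and Grin2c). All-gene calls, 783 as reported, were 1410 with a pseudocount of 0.1, 152 with quantile normalization, 19 with quality weights, 1787 with Control 8w replicates 2 and 3 kept apart and 207 to 2928 without 1 library. In RUN MDZ 8w against MDZ 8w, members called stayed at 0 under all alternatives. All-gene calls, 24 as reported, were 432 with quality weights, 122 with the replicates kept apart, 360 with only the 2 groups and 0 to 275 without 1 library. In RUN MDZ 8w against Control 8w, members called, 2 as reported, were 1 with a pseudocount of 0.1, 1 with no filter, 0 with quality weights, 0 with only the 2 groups and 1 to 5 without 1 library. The 5 came without Control 8w replicate 1 (Gria4, Grid1, Grik1, Grik3 and Grin2c). All-gene calls, 1727 as reported, were 406 with quantile normalization, 0 with quality weights, 2904 with the replicates kept apart, 0 with only the 2 groups and 910 to 3952 without 1 library. Directions turned with quantile normalization for Grin2c in MDZ 8w against Control 8w (log2 -0.051) and for Grin2d and Grm4 in RUN MDZ 8w against Control 8w (log2 -0.55 each). Among members not named for a call or a separation, the sign also turned in 9 of 18 and 6 of 19 in these comparisons with quantile normalization, and in 5 of 18 and 5 of 19 without Control 8w replicate 1. In culture 8 to 12 members passed over the alternatives. The causes were not tested.

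A replicate block by the number in the titles gave 0 members and 0 genes at P10, 1 member and 1227 genes in MDZ 8w against Control 8w, 0 members and 14 genes in RUN MDZ 8w against MDZ 8w, 3 members and 2595 genes in RUN MDZ 8w against Control 8w (Control 8w replicates 2 and 3 kept apart in the 8-week fits), and 10 members and 4646 genes in culture. Deviations of samples with the same number correlated at 0.133 at most (Pearson -0.0771, 0.12 and 0.106 at P10). They were positive in all 3 pairs for Control 8w and MDZ 8w (0.0575, 0.0477 and 0.0081), where Control 8w replicates 2 and 3 are nearly alike. Samples with unlike numbers reached 0.165 at P10 and 0.039 for Control 8w and MDZ 8w. Whether the number stands for a shared batch was not tested, and no label says so. The depth at 8 weeks is unknown.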
